A study of Mus musculus with 24 samples.

Results

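The response of mouse 4TO7 mammary carcinoma cells to TGF-beta was read from 8 of the 24 microRNA (miRNA) arrays of a study of 3 sister tumour lines, chosen by sample title alone. The other 8 and 8 arrays hold 67NR, which the labels call nonmetastatic, and 4T1, which they call highly metastatic. 4TO7 is labelled as systemically invasive. All 3 lines had been kept for 6 days in organotypic 3D culture. In 4TO7, 4 arrays came from cells treated with TGF-beta and 4 from cells in which the TGF-beta type I receptor was inhibited, which the labels name basal. Each side held 2 arrays of cultures on a compliant microenvironment and 2 on a rigid one, labelled set 1 and set 2. No alleles or transgenes are named. No culture lacked both agents, so each rise or fall below is that of TGF-beta relative to receptor inhibition, and the share of either agent cannot be told apart. The labels do not say whether set 1 and set 2 were separate cultures, so p-values measure only the spread between these arrays, which may be technical.

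TGF-beta binds paired type II and type I receptors, and the type I receptor kinase phosphorylates SMAD2 and SMAD3, which join SMAD4 and regulate genes in the nucleus. In mammary epithelial and carcinoma cells this signal is known for growth arrest, for matrix production and for epithelial-mesenchymal transition, in which miRNAs of the miR-200 family and miR-205 are classically lost. A miRNA is a short RNA that guides Argonaute to partly complementary messenger RNAs, and the bases from the second to the eighth, called the seed, largely set which messages it pairs with. miRNAs that share a seed therefore share many predicted targets even when separate genes make them.

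The mature sequences of the miRNAs on which the results turn are given first, because the response ran along some seed families and split others. They come from RefSeq on mouse build GRCm38.p6, where 72 of 77 array names looked up were matched, and the capitals mark the seed. The miR-181 family shares 1 seed over 4 mature miRNAs, and miR-181c differs from miR-181a by a single base edit outside it.
miR-181a: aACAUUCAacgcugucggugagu
miR-181b: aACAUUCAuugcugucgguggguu
miR-181d: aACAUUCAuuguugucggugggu
miR-181c: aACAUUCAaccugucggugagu
The miR-221 and miR-222 pair also shares a seed.
miR-221: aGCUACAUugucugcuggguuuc
miR-222: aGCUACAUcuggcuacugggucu
The next 4 include members that moved in opposite directions although the first 3 have the same seed, and miR-503 has a closely related one.
miR-16: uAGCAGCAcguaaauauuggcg
miR-15b: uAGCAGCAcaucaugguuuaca
miR-322: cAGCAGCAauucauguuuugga
miR-503: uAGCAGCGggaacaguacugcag
The miR-99 and miR-100 seed was likewise split.
miR-99b: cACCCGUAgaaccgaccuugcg
miR-99a: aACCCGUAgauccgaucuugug
miR-100: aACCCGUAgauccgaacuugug
The last 4 have seeds of their own here, and their responses are also compared between the lines.
miR-155: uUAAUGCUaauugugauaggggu
miR-205: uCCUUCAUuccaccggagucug
miR-140*: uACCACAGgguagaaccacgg
miR-22: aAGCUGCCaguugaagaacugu

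The arrays carry 558 mouse miRNA probes, of which those detected in at least 1 group were tested, and between 323 and 348 were detected above background on each 4TO7 array. Levels below are log2 relative intensities after quantile normalization, differences are on the same log2 scale with their standard error (SE), and set 1 comes before set 2. Across miRNAs, r between the 2 arrays of a 4TO7 group was 0.997 to 0.998 and their SD 0.0743 to 0.102. Precision is limited by how few arrays each side has. Before normalization the median log2 intensity was higher on the TGF-beta arrays (7.41 to 7.73) than on the inhibitor arrays (7.29 to 7.38). Medians of the spike-in control probes overlapped and reached lower on the TGF-beta arrays (11.88 to 12.08) than on the inhibitor arrays (12.06 to 12.10). The part of the gap in median miRNA intensity in the results was not tested. As a check of the label, miR-200b, miR-200c and miR-429, which mark epithelial cells, were detected on 0 of 8 4TO7 arrays and on 8 of 8 of 4T1. They were detected on 0 of 8 67NR arrays too, so they tell 4TO7 from 4T1 but not from 67NR. The rest of the epithelial list was detected in 4TO7, miR-141 and miR-203 on 8 of 8 arrays, miR-200a on 6 and miR-205 on 2. By detection, epithelial miRNAs as a list were therefore not absent from 4TO7. Mean levels of miR-141 were 6.69 in 4TO7, 6.64 in 67NR and 9.1 in 4T1, and those of miR-200a 6.42, 6.35 and 8.6. In the same order miR-203 averaged 7.74, 8.04 and 7.52, and miR-205 averaged 6.89, 6.12 and 6.07. For miR-141 and miR-200a the 4TO7 level was thus near that of 67NR and below that of 4T1. Of 7 blood miRNAs, 6 were detected on no 4TO7 array, as were both endothelial probes. In a bulk sample, fewer cells of a type and less RNA per cell cannot be told apart.

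The main comparison asked how miRNA levels in 4TO7 answer TGF-beta. Of the miRNAs tested, 78 passed an adjusted p of 0.05 in limma (21.4%), 35 of them higher with TGF-beta (9.59%) and 43 lower (11.8%). The rises were led by miR-155, miR-181b and miR-181a and the falls by miR-222, miR-221 and miR-205. Rises that passed spanned 0.13 to 1.15 and falls 0.10 to 1.17, and only 3 (0.822%) moved more than 2-fold. The 4 TGF-beta arrays lay wholly above or below the 4 inhibitor arrays for 54 of the 78, against 64 of all tested (17.5%). Of the 78, 73 had the same sign in all 4 pairs of matching microenvironment and set. A TGF-beta and an inhibitor array shared a slide once in each microenvironment, and 76 of the 78 had the called sign within both slides. The 78 were called on these same arrays, so agreement of sign within pairs or slides is no separate evidence for them. With slide as a block 63 passed. The first principal component of the 8 arrays held 62.1% of the variance and placed the TGF-beta arrays between -2.31 and -1.46 and the inhibitor arrays between 1.58 and 2.28. The split between higher and lower was 27 and 53 under median scaling and 45 and 35 in the authors' deposited value table.

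**Figure D1:**
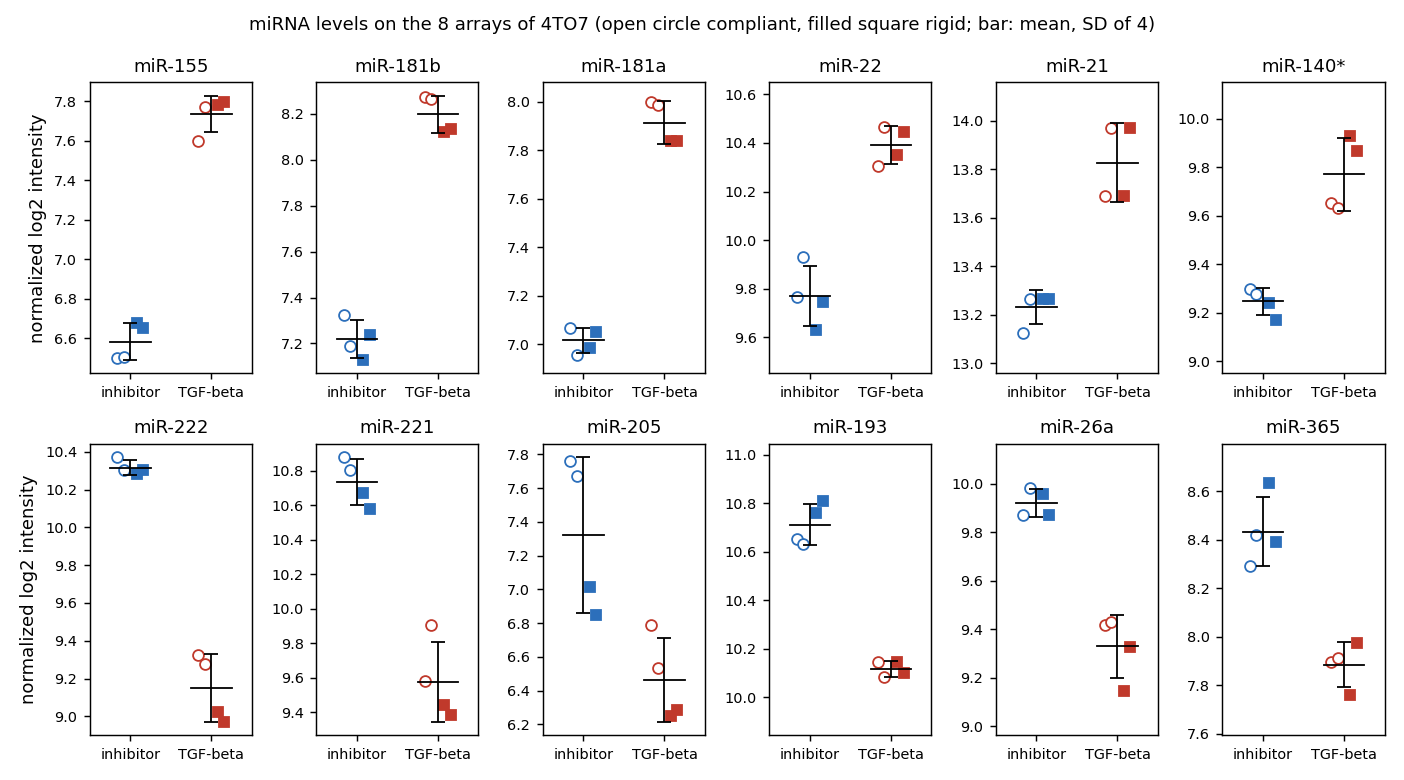
Normalized log2 intensity of 6 miRNAs that rose (top) and 6 that fell (bottom) on the 8 arrays of 4TO7, inhibitor at left and TGF-beta at right in each panel. Open circles are compliant and filled squares rigid cultures, the bars give the mean and SD of 4 arrays, and each panel has its own scale. In all 12 panels the 2 sides do not overlap, and miR-205 shows the widest inhibitor side, from 6.85 to 7.76.

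The largest rise was that of miR-155, a miRNA cut from the noncoding transcript Mir155hg (mature sequence at chr16:84714143-84714165, + strand) and known for its role in activated immune cells. It read 7.60 and 7.77 on compliant and 7.78 and 7.79 on rigid TGF-beta arrays. Its inhibitor values were 6.50 and 6.50 on compliant and 6.68 and 6.65 on rigid arrays. Every TGF-beta array thus lay above every inhibitor array. It was detected on 4 of 4 TGF-beta arrays and 0 of 4 inhibitor arrays, so its level rose at least 2.22-fold (difference 1.15 ± 0.05, adjusted p = 7.8e-11 in limma).

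MiR-146a, a brake on NF-kappa-B signalling, read 6.84 and 7.04 on compliant and 6.70 and 6.72 on rigid TGF-beta arrays, against 6.47, 6.38, 6.36 and 6.29 with the inhibitor. The sides did not overlap, but only the compliant TGF-beta arrays passed detection. Its rise was 1.36-fold in measured signal (0.45 ± 0.06, adjusted p = 1.3e-05 in limma), which is no lower bound because the rigid TGF-beta arrays lay below detection. MiR-146b, with the same seed and a mature sequence 2 edits away, rose by 0.17 ± 0.05 (adjusted p = 0.019), with overlapping arrays. It was detected on 3 of 4 TGF-beta arrays and 1 of 4 inhibitor arrays. Its call held in 13 of 18 alternatives and not without the second compliant inhibitor array (adjusted p = 0.10). Of the 5 miRNAs listed as inflammation associated, 3 rose and none fell, beside 9.59% and 11.8% of all tested probes. Their median difference was 0.17 against -0.0001 over all tested. The remaining members miR-132 and miR-212, which share a seed and lie close together on chr11, differed by 0.10 and -0.12 without passing.

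MiR-21, made from a transcript inside the bounds of Vmp1 and raised in many carcinomas, read 13.69 and 13.97 on compliant and again 13.69 and 13.97 on rigid TGF-beta arrays. The inhibitor arrays gave 13.13, 13.27, 13.27 and 13.27. The sides were separate, and the repeated values arise because quantile normalization gives equal ranks equal values at the bright end. Its rise was 0.60 ± 0.09 (adjusted p = 5.3e-05), and 0.84 in the authors' deposited values. MiR-22, cut from Mir22hg, read 10.30, 10.47, 10.35 and 10.45 with TGF-beta and 9.77, 9.93, 9.63 and 9.74 with the inhibitor. It rose 1.54-fold (0.62 ± 0.06, adjusted p = 4e-07 in limma), again with no overlap.

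The miR-181 family was measured with 4 main and 2 passenger strands. Of these strands 4 rose and none fell (median 0.32), beside 9.59% and 11.8% of all tested probes. Because the published work on these samples picked this family, the count cannot serve as independent evidence of its direction. MiR-181b read 8.27, 8.27, 8.12 and 8.13 on the TGF-beta arrays and 7.33, 7.19, 7.13 and 7.24 on the inhibitor arrays. MiR-181a read 8.0, 7.99, 7.84 and 7.84 against 7.07, 6.96, 6.99 and 7.05. Both were higher on every TGF-beta array, by 1.97-fold (0.98 ± 0.04, adjusted p = 2.4e-11) and 1.86-fold (0.90 ± 0.04, adjusted p = 2.5e-11).

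MiR-181a and miR-181b are each made at a pair of loci, chr1:137966468-137966673 and chr2:38852741-38853868, the second inside the bounds of Nr6a1. The main strands are identical between the loci, but the passenger strands differ and so were read by separate probes. The strand from the chr2 locus, miR-181a-2*, rose by 0.20 ± 0.05 (adjusted p = 0.0031 in limma), with TGF-beta arrays at 7.14 to 7.21 and inhibitor arrays at 6.85 to 7.04. The chr1 strand, miR-181a-1*, differed by -0.005 ± 0.05 (adjusted p = 0.97), with an interval of -0.11 to 0.10 at 95%.

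MiR-181d and miR-181c also lie together, within 187 bases at chr8:84178759-84178945 on the - strand. MiR-181d read 7.62, 7.69, 7.60 and 7.63 with TGF-beta and 7.20, 7.17, 7.21 and 7.18 with the inhibitor, without overlap. It rose by 0.44 ± 0.04 (adjusted p = 1.6e-07 in limma). MiR-181c read 7.26, 7.22, 7.22 and 7.28 with TGF-beta and 7.38, 7.26, 7.22 and 7.38 with the inhibitor, and the sides overlapped. Its difference was -0.06 ± 0.04 (adjusted p = 0.33), and its interval of -0.15 to 0.03 holds neither the rise of miR-181d nor that of miR-181a, from which it differs by 1 edit.

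The largest falls were those of miR-222 and miR-221. Both target the cyclin-dependent kinase inhibitor p27, share a seed and lie within 617 bases at chrX:19146307-19146923. MiR-222 read 9.32 and 9.28 on compliant and 9.02 and 8.97 on rigid TGF-beta arrays, against 10.37, 10.30, 10.28 and 10.30 with the inhibitor. MiR-221 read 9.58, 9.90, 9.45 and 9.38 against 10.88, 10.81, 10.67 and 10.58. Neither pair of sides overlapped, and the inhibitor level was 2.25 times the TGF-beta level for miR-222 (-1.17 ± 0.05, adjusted p = 2.4e-11) and 2.23 times for miR-221 (-1.16 ± 0.09, adjusted p = 7e-08).

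The miR-15 and miR-16 seed, shared by 6 measured miRNAs that act against cyclins and BCL2, did not move as one. MiR-16 rose, miR-15b and miR-322 fell, and the median over the 6 was -0.07, where 9.59% of all tested probes rose and 11.8% fell. MiR-16 read 10.42, 10.61, 10.56 and 10.86 with TGF-beta and 9.93, 10.03, 10.42 and 10.42 with the inhibitor. The sides overlapped at 10.42, through the rigid inhibitor arrays, and the rise was 0.41 ± 0.09 (adjusted p = 0.0019 in limma). MiR-15b read 9.40, 9.51, 9.40 and 9.58 with TGF-beta and 9.53, 9.88, 9.93 and 9.84 with the inhibitor, overlapping through 1 inhibitor array, and fell by 0.32 ± 0.07 (adjusted p = 0.0024). The mature miR-15b and 1 copy of miR-16 lie within 165 bases of each other at chr3:69009775-69009939 inside the bounds of Smc4. A second copy of miR-16 lies within 161 bases of miR-15a on chr14, inside the bounds of Dleu2, and miR-15a differed by -0.11 (adjusted p = 0.29). One miR-16 probe reads both copies.

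MiR-322 belongs to an X-linked cluster that spans 6353 bases at chrX:53047997-53054349 and is known for arresting proliferation during differentiation. Of its 11 probes 8 were tested, and 5 fell and none rose (median -0.16), beside 11.8% and 9.59% of all tested probes. MiR-450a-5p read 6.67, 6.80, 6.58 and 6.68 with TGF-beta and 7.25, 7.14, 7.11 and 7.10 with the inhibitor. It was detected on 1 and 4 of 4 arrays and fell by 0.47 ± 0.04 (adjusted p = 7.8e-08 in limma). MiR-503 read 7.72, 7.66, 7.72 and 7.80 against 8.17, 8.10, 8.13 and 8.20. Neither overlapped, and miR-503 fell by 0.43 ± 0.05 (adjusted p = 6.6e-06). MiR-322 itself fell by 0.35 ± 0.05 (adjusted p = 5e-05), with TGF-beta arrays at 8.65 to 8.70 and inhibitor arrays at 8.96 to 9.09. MiR-542-3p fell by 0.18 and miR-322* by 0.14, the latter in 10 of 19 alternatives, while miR-351 (-0.11), miR-450a-3p (-0.09) and miR-542-5p (0.07) did not pass.

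Of 9 let-7 family members, which hold back RAS and MYC and oppose proliferation, let-7i rose and 4 fell, with a median of -0.17. Over all tested probes 9.59% rose and 11.8% fell. Let-7i read 10.63, 10.88, 10.65 and 10.78 with TGF-beta and 10.51, 10.45, 10.30 and 10.37 with the inhibitor. All TGF-beta arrays were higher, and the rise was 0.33 ± 0.06 (adjusted p = 0.00067 in limma). MiR-98, which has the let-7 seed, fell by 0.39, let-7c by 0.34 and let-7b by 0.33, each with separate sides. Let-7e fell by 0.17 with overlapping arrays and kept its call in 14 of 19 alternatives (adjusted p = 0.10 without the first compliant inhibitor array).

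Among the 13 probes of the growth-promoting miR-17 clusters 12 were tested, and miR-17 alone rose (0.29 ± 0.06, adjusted p = 0.0011) while none fell. Its arrays read 9.51, 9.79, 9.56 and 9.65 with TGF-beta and 9.32, 9.30, 9.34 and 9.40 with the inhibitor, without overlap. MiR-20a, which lies within 522 bases of miR-17 on chr14 and shares its seed, differed by 0.23 ± 0.08 without passing (adjusted p = 0.064), and passed in 5 of 19 alternatives. MiR-34a, a p53 target that slows the cell cycle, rose by 0.36 ± 0.05 (adjusted p = 4.8e-05), the 1 call among 7 tested in the miR-34 family. Beside the counts of rises in the miR-17 clusters and the miR-34 family, 9.59% of all tested probes rose.

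Among miRNAs reported as lost in TGF-beta driven epithelial-mesenchymal transition, 1 of 7 fell and none rose, a share near the 11.8% of all probes that fell. The 1 was miR-205, cut from Mir205hg (mature sequence at chr1:193507503-193507524, - strand), which restrains the transition factors ZEB1 and ZEB2. It read 6.79 and 6.54 on compliant and 6.25 and 6.29 on rigid TGF-beta arrays, against 7.76 and 7.67 on compliant and 7.01 and 6.85 on rigid inhibitor arrays. The sides did not overlap. Only the compliant inhibitor arrays, 2 of the 24 arrays in the study, passed detection. The fall was 1.81-fold in measured signal (-0.86 ± 0.05, adjusted p = 4.9e-09 in limma). It is no lower bound, because the rigid values lie below detection on both sides. The probe was tested only because the compliant inhibitor arrays, where it read highest, detected it. Its p-values are therefore no separate support for the fall. The 5 miR-200 family members differed by -0.09 to 0.06 and none passed. Of these, miR-141 was detected on all 8 arrays and miR-200a on 6, with differences of 0.01 (interval -0.11 to 0.12) and 0.001 (interval -0.11 to 0.12), and the other 3 on none, where no fall can be seen. The 4TO7 means of miR-141 and miR-200a, 6.69 and 6.42, were also low, against 9.1 and 8.6 in 4T1. Undetected values of miR-205 lay in the same range, so a fall of these 2 might not show. The summed relative intensity of the 7 epithelial probes was 615.3 to 648.8 on TGF-beta and 666.1 to 796.2 on inhibitor arrays. Of these probes only miR-205 passed and the others differed by -0.09 to 0.06, so the sum shows no fall across the list. The sum of the 7 mesenchymal probes was 9152 to 9869 and 9144 to 9828.

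Among 10 miRNAs reported elsewhere as TGF-beta induced, 7 were tested. MiR-155 and miR-21 rose and none fell (median 0.06), beside 9.59% and 11.8% of all tested probes. The other tested members included miR-10b (0.03), miR-199a-5p (0.06) and miR-145 (0.08), whose arrays overlapped. MiR-208b, the 1 muscle probe detected on all 8 arrays, fell by 0.30 ± 0.07 (adjusted p = 0.0045), and the summed muscle list was 551.1 to 582.3 on TGF-beta and 604.6 to 629.6 on inhibitor arrays. The other 5 muscle probes were detected on no 4TO7 array.

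All 4 probes of the neighbouring miR-193 and miR-365 genes fell (median -0.49), beside 11.8% of all tested probes. These genes sit in pairs, Mir193a with Mir365-2 within 14543 bases of chr11 and Mir193b with Mir365-1 within 4404 bases of chr16. MiR-193 read 10.15, 10.08, 10.15 and 10.10 with TGF-beta and 10.65, 10.63, 10.76 and 10.81 with the inhibitor. It fell by 0.59 ± 0.06 (adjusted p = 2.1e-06 in limma), miR-365 by 0.55 ± 0.06 and miR-193b by 0.44 ± 0.07, none with overlapping sides. The passenger strand miR-193* fell by 0.14, with overlap, in 9 of 19 alternatives.

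MiR-26a, whose copies lie inside the bounds of the phosphatase genes Ctdspl and Ctdsp2, read 9.42, 9.43, 9.14 and 9.32 with TGF-beta and 9.87, 9.98, 9.96 and 9.87 with the inhibitor. It fell by 0.59 ± 0.06 (adjusted p = 1.6e-06 in limma), and its seed partner miR-26b, inside Ctdsp1, by 0.23 ± 0.05 (adjusted p = 0.0031), both without overlap. Of 5 miR-30 family members, 3 fell and none rose (median -0.30), beside 11.8% and 9.59% of all tested probes. MiR-30c was lower by 0.37, miR-30b by 0.34 and miR-30a by 0.30. The call of miR-30b held in 17 of 19 alternatives. MiR-130a, miR-130b and miR-301a, which share a seed, and miR-301b fell by 0.25, 0.29, 0.26 and 0.27. The call of miR-130a held in 15 of 19 alternatives and not without the first compliant TGF-beta array (adjusted p = 0.086). These 4 were singled out after their values were seen.

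The miR-99 and miR-100 seed, known for restraining mTOR, was split by gene. MiR-100 read 8.07, 8.13, 7.88 and 7.99 with TGF-beta and 8.52, 8.48, 8.37 and 8.38 with the inhibitor, and fell by 0.42 ± 0.04 (adjusted p = 2.1e-06 in limma). MiR-99a, 1 edit away from it, fell by 0.40 ± 0.04 (adjusted p = 5.2e-07). MiR-99b, 4 edits from both, read 11.11, 11.21, 11.27 and 11.16 with TGF-beta and 10.83, 10.88, 11.02 and 11.06 with the inhibitor, and rose by 0.24 ± 0.05 (adjusted p = 0.0016). All 3 had separate sides. Under median scaling the rise of miR-99b was 0.13 and did not pass (adjusted p = 0.11). MiR-99b, let-7e and miR-125a-5p lie within 647 bases at chr17:17830194-17830840, inside the bounds of Spaca6, and their differences were 0.24, -0.17 and -0.05, the last not passing. MiR-125b-5p, which shares its seed with miR-125a-5p, fell by 0.29 ± 0.07 (adjusted p = 0.0035), but not in the authors' deposited values (-0.17, adjusted p = 0.13 in limma).

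**Figure D2:**
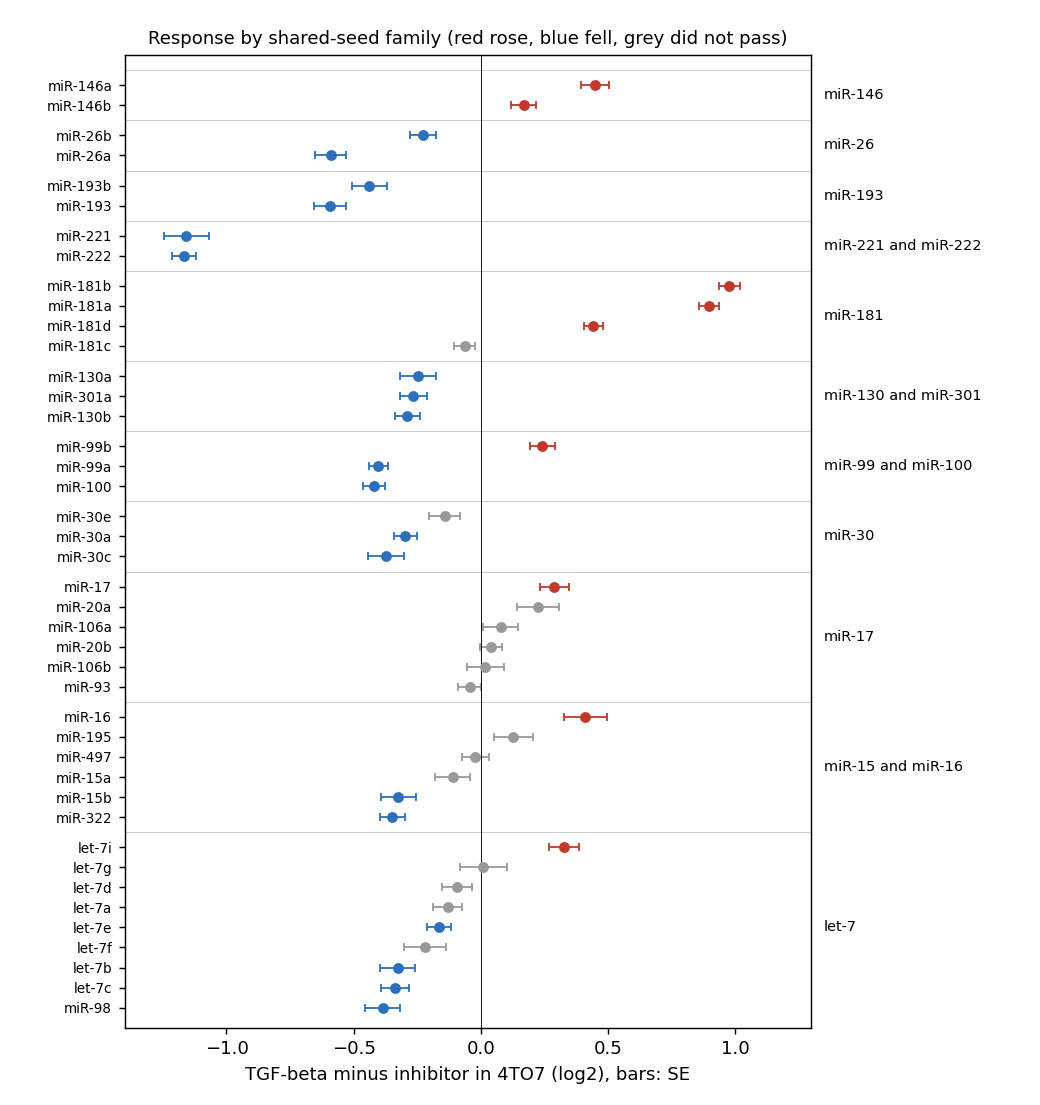
Difference between TGF-beta and inhibitor in 4TO7 (log2, horizontal axis, bars are SE) for the measured miRNAs with a matched sequence, grouped by shared seed and named at right. The miR-221, miR-193, miR-26 and miR-130 groups lie wholly to the left, miR-146 to the right, and the let-7, miR-15 and miR-99 groups hold calls on both sides.

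The remaining lists changed little. In the imprinted Dlk1-Dio3 cluster 4 of 39 tested probes rose and none fell (median 0.0), a share near the 9.59% of all probes that rose. None of the 4 held throughout, with miR-329 called in 9, miR-337-5p in 11 and miR-673-3p in 11 of 19 alternatives and miR-882 in 14 of 18. Under median scaling miR-329, miR-337-5p and miR-882 did not pass (adjusted p = 0.23, 0.17 and 0.11 in limma). In the Sfmbt2 cluster 1 of 16 rose and 1 fell, and the rise, read by the probe for miR-467a and miR-467b, did not pass under median scaling (adjusted p = 0.28). None of the 3 tested probes passed in the miR-183 cluster, the miR-29 family or the miR-23 clusters. MiR-182 and miR-183 each differed by 0.14 (adjusted p = 0.067 and 0.072) and passed in 2 and 3 of 19 alternatives. MiR-210, the main miRNA induced by low oxygen, fell by 0.43 ± 0.09 (adjusted p = 0.0017 in limma), reading 9.71, 9.65, 9.28 and 8.91 with TGF-beta and 10.22, 9.96, 9.58 and 9.51 with the inhibitor. Its sides overlapped across microenvironments but not within either one.

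Both strands of a hairpin could be followed for 38 pairs. The main strand passed in 11 of them, its passenger strand passed in the same direction in 6, and in none in the opposite direction. Of all 64 passenger strands tested, 6 rose and 6 fell, beside 9.59% and 11.8% of all tested probes. MiR-140 is the clearest case, a hairpin inside Wwp2 known from cartilage. Main and passenger follow the array names, and here the starred strand gave the higher signal. MiR-140* read 9.65 and 9.63 on compliant and 9.93 and 9.87 on rigid TGF-beta arrays, and 9.30, 9.28, 9.24 and 9.17 with the inhibitor. MiR-140 read 8.13 and 8.22 on compliant and 8.32 and 8.45 on rigid TGF-beta arrays, and 7.96, 7.90, 7.82 and 7.85 with the inhibitor. Neither overlapped, and the rises were 0.52 ± 0.05 (adjusted p = 4e-07) and 0.40 ± 0.05 (adjusted p = 7.8e-06 in limma). For miR-22 the passenger strand was detected on 2 TGF-beta arrays and no inhibitor array and rose 1.19-fold in measured signal, which is no lower bound. MiR-21* rose by 0.20 and miR-30a* fell by 0.13, in 10 of 19 and 5 of 18 alternatives. The calls of miR-193* and miR-322* held in 9 and 10 of 19. For let-7i, miR-17, miR-99b, miR-30b and miR-146b the passenger strand did not pass.

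The second question was whether the response depended on the microenvironment. On compliant cultures, 2 arrays against 2, 55 miRNAs passed (15.1%), 23 higher (6.3%) and 32 lower (8.77%). On rigid cultures 48 passed (13.2%), 18 higher (4.93%) and 30 lower (8.22%). Of these, 36 passed in both with the same sign and none with opposite signs. Without the second compliant TGF-beta array or the first compliant inhibitor array the compliant count was 32 or 33.

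The difference of the 2 responses was tested directly, and 0 passed in limma (0.0%), with 8 at an unadjusted p of 0.05 (2.19%). The interval of that difference was wide, with a median half-width of 0.227 at 95% before any adjustment. Larger differences, of 0.30 to 0.39, also did not pass after adjustment. The absence of calls therefore does not show that the 2 responses were equal. The 3 smallest p-values did not pass. MiR-205 fell by 1.05 on compliant and by 0.66 on rigid cultures, a difference of 0.39 ± 0.11 (adjusted p = 0.47, interval 0.17 to 0.62). The rigid values are those of undetected probes. Without the first compliant TGF-beta array it passed (0.52, adjusted p = 0.043). MiR-140* rose by 0.35 on compliant and 0.69 on rigid cultures (difference 0.34 ± 0.09, adjusted p = 0.47). MiR-140 rose by 0.25 and 0.54 (difference 0.30 ± 0.09, adjusted p = 0.78). For miR-155 the responses were 1.18 and 1.12, with an interval of the difference of -0.29 to 0.17.

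**Figure D3:**
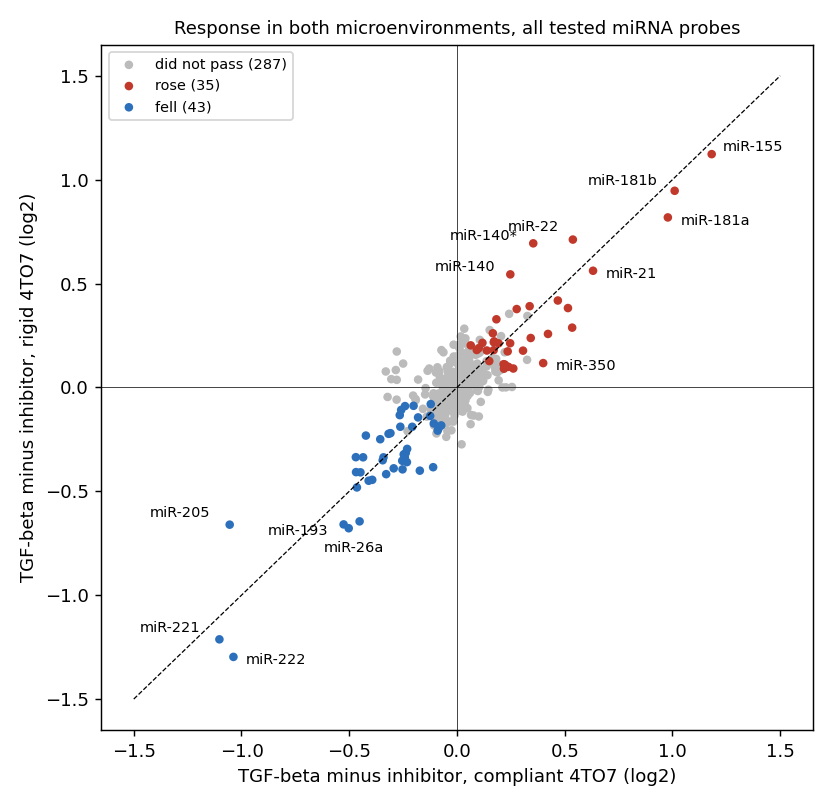
TGF-beta effect in compliant (horizontal) and rigid (vertical) 4TO7 cultures, both as log2 differences, for all tested probes, with red and blue marking the 35 that rose and 43 that fell over both. The dashed line marks equal effects. MiR-155 and miR-181b lie near the line at the upper end, and miR-222 lies below the line at the lower end. MiR-140* lies above the line at 0.35 and 0.69, as does miR-205 at -1.05 and -0.66.

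The third question was where the 4TO7 response differs from that of the other lines, each with 4 arrays a side. Against 67NR the difference passed for 42 miRNAs (11.5%), 27 with a higher (7.4%) and 15 with a lower effect (4.11%) in 4TO7. Against 4T1 it passed for 41 (11.2%), 24 higher (6.58%) and 17 lower (4.66%). For comparison, TGF-beta called 40 miRNAs in 67NR (11.0%), 12 higher (3.29%) and 28 lower (7.67%), and 116 in 4T1 (31.8%), 46 higher (12.6%) and 70 lower (19.2%). Both comparisons with 4TO7 use the same 4TO7 arrays, so they are not independent. The counts fell to 27 and 24 with slide as a block, and that against 67NR to 26 without either rigid inhibitor array.

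Some responses did not differ detectably between lines. MiR-181a rose by 0.90 in 4TO7, 0.79 in 67NR and 0.95 in 4T1, with intervals of the difference of -0.01 to 0.22 and -0.16 to 0.07. MiR-221 fell by 1.16, 0.97 and 1.09, with intervals of -0.46 to 0.08 and -0.33 to 0.20. The fall of miR-222 was 0.23 ± 0.07 larger in 4TO7 than in 67NR (adjusted p = 0.04 in limma).

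MiR-155 differed most. Its effect was 1.15 in 4TO7, 0.05 ± 0.05 in 67NR and 0.18 ± 0.05 in 4T1, a difference of 1.10 ± 0.08 (adjusted p = 9.6e-08) and 0.97 ± 0.08 (adjusted p = 5.3e-07 in limma). The smaller rise in 4T1 passed too (adjusted p = 0.017 in limma), and that in 67NR did not. The 4TO7 effect starts from undetected inhibitor arrays, and detection of miR-155 in 67NR and 4T1 is not given here. MiR-205 fell in 4TO7 and differed by 0.02 and 0.04 with TGF-beta in 67NR and 4T1, where it was detected on 0 of 8 arrays each. Those lines therefore had no measured level from which a fall could be read. The differences of effect were -0.88 ± 0.08 (adjusted p = 1.2e-06) and -0.90 ± 0.08 (adjusted p = 5.5e-07). MiR-205 entered the test through the compliant inhibitor arrays of 4TO7 alone, so these p-values are no separate support either. For miR-140* the effect was 0.52 in 4TO7 against -0.02 and 0.13 (adjusted p = 8.1e-05 and 0.0006), and for miR-140 it was 0.40 against -0.02 and 0.05 (adjusted p = 0.00086 and 0.0023).

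MiR-16 went in opposite directions, with a rise of 0.41 in 4TO7 and falls of 0.28 ± 0.09 in 67NR (adjusted p = 0.049) and 0.42 ± 0.09 in 4T1 (adjusted p = 0.0014). The differences of 0.69 ± 0.12 and 0.83 ± 0.12 passed (adjusted p = 0.0016 and 0.00022 in limma). Within 4TO7 the rise of miR-16 was 0.53 on compliant cultures (adjusted p = 0.0056 in limma). On rigid cultures it was 0.29 and did not pass (adjusted p = 0.15). MiR-503 fell by 0.43 in 4TO7 and differed by -0.03 in 67NR and -0.08 in 4T1 (adjusted p of the difference 0.0016 and 0.003 in limma). MiR-148a, which targets DNA methyltransferases, rose by 0.34 in 4TO7 against 0.02 in 67NR and 0.06 in 4T1 (adjusted p of the difference 0.0016 and 0.003 in limma). MiR-450a-5p fell by 0.47 in 4TO7, and its effect was -0.09 in 67NR and -0.31 in 4T1. Only the difference from 67NR passed (-0.38, adjusted p = 0.00022, against an adjusted p of 0.063 for 4T1).

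For a further group the 4TO7 response was smaller than that of 4T1. MiR-146a rose by 0.45 in 4TO7 and 1.27 in 4T1 (difference -0.82 ± 0.08, adjusted p = 2.4e-06), and by 0.03 in 67NR (difference 0.41 ± 0.08, adjusted p = 0.0027). MiR-146b rose by 0.17 against 0.998 (difference -0.83 ± 0.07, adjusted p = 5.5e-07). MiR-22 rose in all 3 lines, by 0.34 in 67NR, 0.62 in 4TO7 and 1.26 in 4T1, and 4TO7 differed from each (adjusted p = 0.037 and 5.2e-05). MiR-149, inside the bounds of Gpc1, rose by 0.23 in 4TO7 and 0.50 in 4T1, and differed by -0.02 in 67NR. In 4TO7 it was detected on 4 of 4 TGF-beta arrays but on 2 of 4 inhibitor arrays, neither of them rigid. Let-7i rose by 0.33 in 4TO7 against 0.05 in 67NR and 0.76 in 4T1 (adjusted p = 0.045 and 0.0023). Among the falls, miR-193 fell less in 4TO7 (0.59) than in 67NR (0.92) or 4T1 (0.98), and miR-210 by 0.43 against 0.85 and 1.23, each difference passing.

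**Figure D4:**
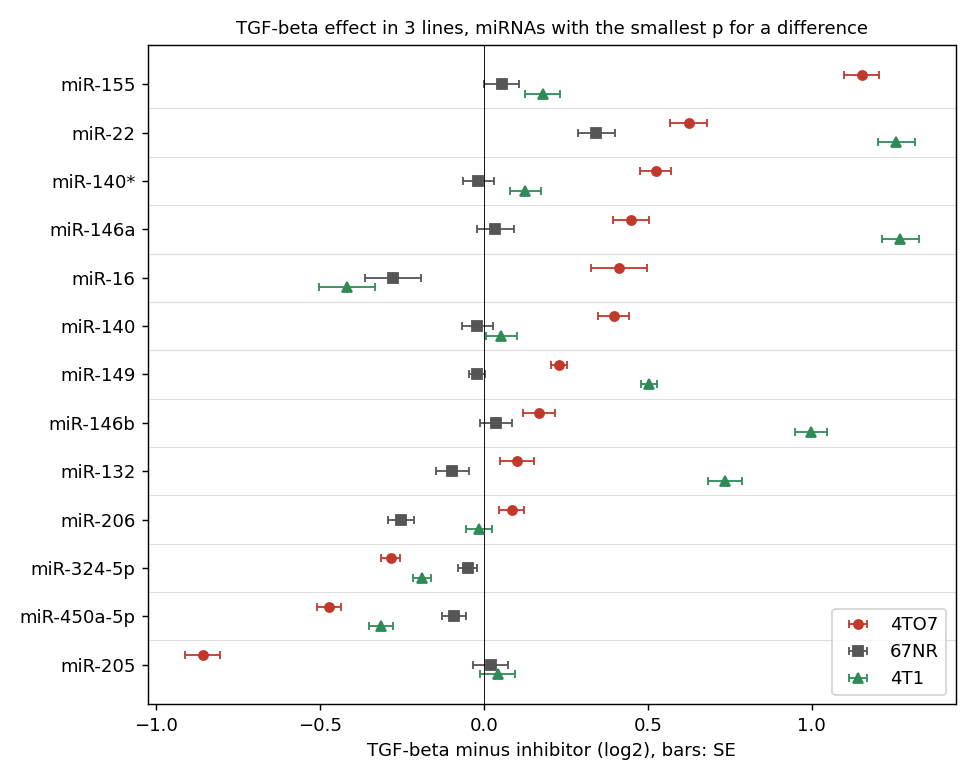
TGF-beta effect (log2 difference from the inhibitor, bars are SE) in 4TO7, 67NR and 4T1 for the 13 miRNAs with the smallest p for a difference between 4TO7 and 1 of the other lines. MiR-155 (1.15) stands apart from the other lines, miR-205 (-0.86) was detected on no 67NR or 4T1 array, miR-16 lies on the opposite side of 0, and miR-22, miR-146a, miR-146b and miR-149 lie between 67NR and 4T1.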

How the data were processed

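The deposited files of each array hold a relative intensity per probe, which per the file headers divides the DY649 sample channel by a DY547 channel of synthetic reference. It is linear, and the authors had subtracted background and corrected for labelling. They also hold a detection p-value and a fail code as the authors deposited them. The authors' deposited value table gives log2 intensity for 338 probes. The genome build used for array design, the scanner and the software versions are not given in the sources used here.

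Log2 intensities of 558 miRNA probes on all 24 arrays were quantile normalized. Tested probes had a detection p under 0.05 on each array of some group, and a fail code on fewer than 12 arrays, 365 in all. Contrasts of a model with 12 group means (12 residual degrees of freedom) were tested in limma 3.58.1 (lmFit, eBayes with trend, R 4.3.3), two-sided, with Benjamini-Hochberg adjustment over the tested probes of each comparison. Tables were made with Python 3.11.15 and pandas 2.3.3, and the fit was tested on simulated data. A miRNA detected on no array of 1 side and on every array of the other is given as "at least". The dim side is then the higher of its own signal and the lowest detected signal on each array. Alternatives were other scalings, the authors' table, other filters, slide and set number as blocks, array weights, the 8 arrays alone and each 4TO7 array left out. Names were matched to RefSeq by strand.

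Members and lists were chosen with earlier results of these data known. The named miRNAs are the 15 largest rises and 15 largest falls with an adjusted p under 0.05 and 1 sign in all 4 pairs, the 8 smallest p for each difference between lines, the 3 smallest for the microenvironments, all measured members of the miR-181, miR-221, miR-193, miR-322, miR-140, inflammation and transition lists, strand partners, and up to 4 members of each other list. Further members of a seed family or cluster (let-7e, miR-15a, miR-125a-5p, the miR-130 and miR-301 group, miR-10b) were named after their values were seen.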

Additional observations from a re-analysis of the deposited data

Results flagged for a closer look

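These 16 values were singled out because a limma contrast showed that the TGF-beta effect differed between lines. Against 67NR the effect in 4TO7 was higher for miR-155 by 1.0985, for miR-140* by 0.5406, for miR-140 by 0.4164, for miR-206 by 0.3371 and for miR-149 by 0.2508. It was lower for miR-205 (-0.878), miR-450a-5p (-0.3814) and miR-324-5p (-0.2348). Their adjusted p lay between 9.6e-08 and 0.0012. MiR-206 was detected on no 4TO7 array, so its value sets a change in 67NR of -0.25 against undetected probes. MiR-205 was tested only because the compliant inhibitor arrays of 4TO7 detected it.

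Against 4T1 the effect in 4TO7 was higher for miR-155 (0.973) and miR-16 (0.8288). It was lower for miR-205 (-0.8995), miR-146b (-0.8285), miR-146a (-0.8217), miR-132 (-0.6369), miR-22 (-0.633) and miR-149 (-0.2744). Their adjusted p lay between 5.3e-07 and 0.00022. MiR-132 rose by 0.74 in 4T1 and differed by 0.10 in 4TO7 without passing.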

How the results depend on the processing

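Of the 78 miRNAs called in 4TO7, 51 passed under every one of the 19 alternatives that tested them, and all 78 kept their sign. The 30 largest passed wherever tested. Leaving out each 4TO7 array in turn gave 61 to 76 calls over both microenvironments, 32 to 56 for compliant, 32 to 50 for rigid, 0 to 1 for their difference, 26 to 42 for the difference from 67NR and 32 to 45 for that from 4T1. With slide as a fixed block 63 passed, and the differences from 67NR and 4T1 counted 27 and 24. Of 6 correlations of set differences between groups, 3 were 0.239 to 0.379 and 3 were -0.156 to 0.0965, so not all were positive and set numbers were not taken as pairs. With set number as a replicate block 84 passed, 77 of them shared, and the counts were 55, 59, 0, 56 and 47 for the other comparisons in the order above. Scaling moved splits of higher and lower calls. They were 34 and 39 under scaling to probes detected on all arrays, 26 and 23 for compliant cultures in the authors' table against 23 and 32, and 17 and 17 against 27 and 15 for the difference from 67NR under scaling to probes detected on all arrays. The median of all tested moved by at most 0.0375. Signal over background limits miR-155 to a bound, and miR-146a, miR-22* and miR-205 to differences in measured signal. Others, such as miR-146b, miR-149 and miR-450a-5p, were detected on only some 4TO7 arrays.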

Other observations

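The called miRNAs of 4TO7 were set beside those of the other lines, whose arrays are separate. Of the 35 that rose, 6 also rose in 67NR and 16 in 4T1, beside 3.29% and 12.6% of all tested probes. Of the 43 that fell, 16 also fell in 67NR and 34 in 4T1, beside 7.67% and 19.2% of all tested. Calls in the opposite direction were found among the rises alone, 1 in 67NR (miR-16) and 4 in 4T1 (miR-16, miR-350, miR-378 and miR-467a with miR-467b, read by 1 probe), and for no fall in either line. These miRNAs were named after their values were seen. MiR-350 read 8.52 and 8.58 on compliant and 8.29 and 8.48 on rigid TGF-beta arrays, and 8.08, 8.21, 8.32 and 8.22 with the inhibitor, so that its sides overlapped through the rigid arrays. Its difference was 0.40 on compliant (adjusted p = 0.00045) and 0.12 on rigid cultures (adjusted p = 0.32 in limma), and the difference of the 2 responses did not pass after adjustment.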
